A study of Mus musculus with 10 samples.

Results

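The genes described here are the cyclins, kinases and kinase inhibitors that set the pace of the G1 phase of the cell cycle, measured in mouse lung squamous cell carcinoma (SCC) and in wild-type (WT) lung. The list held 10 genes: the D-type cyclins Ccnd1, Ccnd2 and Ccnd3, the E-type cyclin Ccne1, the kinases Cdk4 and Cdk6, the INK4 inhibitors Cdkn2a and Cdkn2b, and the CIP/KIP inhibitors Cdkn1b and Cdkn1c. A gene was represented by the probe whose annotated transcript maps to it and, among several such probes, by the one with the highest mean over all arrays. Of the 10 genes, 9 had a probe among the 19096 genes on the array, and Ccnd1, to which the gene table used here linked no probe, is not analysed here. All 9 passed the filter on dim probes.

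Gene expression was measured on 10 single-color Agilent arrays, 5 of WT lungs and 5 of SCCs, with 1 array per sample. All mice were 13 months old, and of strain B6.129 per the labels, while the study's methods write the strain as a mixed background. WT mice were homozygous for the floxed Lkb1 allele (Lkb1f/f), with no Cre named in their genotype, and SCCs came from CCSPiCreLkb1f/f mice, so the floxed allele was common to both groups. Lkb1, also called Stk11, encodes a tumor suppressor kinase. CCSPiCre expresses Cre recombinase from the promoter of the club cell secretory protein gene, which is active in the airway epithelium, whereas RNA was taken from the whole lung in WT mice and from the whole tumor in SCCs. The floxed gene itself is not analysed here. In such bulk samples, fewer cells of a type and less RNA per cell cannot be told apart.

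In G1, D-type cyclins bind Cdk4 or Cdk6, and E-type cyclins bind Cdk2. These kinases phosphorylate the retinoblastoma protein and its relatives, which releases E2F transcription factors to switch on genes for DNA synthesis. INK4 inhibitors bind Cdk4 and Cdk6 and keep D-type cyclins off them, and CIP/KIP inhibitors bind cyclin and kinase together, with Cdk2 complexes their main targets.

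Markers were read first, and the arrays were not alike. Of 8 measured squamous markers, the 4 that were well above background on every array (Trp63, Krt5, Krt14 and Krt16) were higher in SCC. Krt6a, Dsg3, Pkp1 and Sprr1b were not well above background on any WT array and entered the test only through SCC, and Sprr1b was at 1.86 on SCC replicate 2, inside its WT range. All 6 markers of dividing cells were higher in SCC, and all 7 endothelial markers were lower. The log2 of the summed intensity of the 4 squamous markers measured on every array ranged from 8.12 to 8.41 on WT arrays. On SCC arrays it was 16.25 for replicate 2 and 18.70 to 18.96 for the others. SCC replicate 2 stood closer to WT lung across all tested probes as well, which are not independent replicates, at r = 0.940 to 0.946 with WT arrays, against 0.850 to 0.905 for the other SCC arrays. SCC replicate 5 stood apart in another way, with 90.2% of probes well above background, against 71.0% to 74.3% on the other 9 arrays, and its values for several dim probes were the lowest of all arrays. WT replicates 1 to 4 lay on 1 slide, WT replicate 5 with SCC replicates 1 to 3 on another, and SCC replicates 4 and 5 on the last, so the groups were compared within a slide only on the slide that held WT replicate 5.

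The promoter sequences nearest to the largest changes are shown first, since the genes below were read out as transcripts only. RefSeq windows from 250 bases before to 50 bases after a transcript start (GRCm38.p6) were at hand for 7 of the 9 measured genes, and Ccnd2 and Cdkn1c had no entry. The 120 bases just before the start are given, 5′ to 3′ on the strand of the gene, for Ccne1, Cdk6 and Cdkn1b, the genes of this kind with the largest differences between SCC and WT, and for Cdkn2a, the only one with a match to the E2F letters. Capitals mark that match.
Ccne1, chr7:38107491-38107610, minus strand: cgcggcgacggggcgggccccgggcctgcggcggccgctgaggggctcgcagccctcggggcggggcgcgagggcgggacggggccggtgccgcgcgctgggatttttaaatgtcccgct
Cdk6, chr5:3343773-3343892, plus strand: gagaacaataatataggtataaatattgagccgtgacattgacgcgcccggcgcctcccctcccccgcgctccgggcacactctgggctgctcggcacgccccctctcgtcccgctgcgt
Cdkn2a, chr4:89294620-89294739, minus strand: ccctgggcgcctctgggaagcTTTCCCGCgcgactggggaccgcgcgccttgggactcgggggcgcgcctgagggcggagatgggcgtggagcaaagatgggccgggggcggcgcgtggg
Cdkn1b, chr6:134920281-134920400, plus strand: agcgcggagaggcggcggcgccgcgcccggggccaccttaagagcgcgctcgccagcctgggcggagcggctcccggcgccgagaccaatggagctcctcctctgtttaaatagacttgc

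Both strands of the 9 windows of these 7 genes were searched for the E2F letters TTTCCCGC, TTTGGCGC, TTTGCCGC and TTTCGCGC and for the AP-1 letters TGANTCA. The only match was TTTCCCGC in 1 of the 2 Cdkn2a windows, the upstream one, on the strand of the gene from base -99 to base -92 relative to the start. Of 32851 mouse promoter windows of this length, 744 (2.26%) held 1 of the E2F forms and 2565 (7.81%) held the AP-1 letters. A match is a description of the letters and not of a bound site, and the lack of these exact letters does not show that a site is absent.

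The G1 genes changed in both directions in SCC. Of the 9 measured, 3 were higher in SCC (Ccne1, Cdk4 and Cdk6), 4 were lower (Ccnd2, Ccnd3, Cdkn1b and Cdkn1c), and Cdkn2a and Cdkn2b did not pass, at an adjusted p below 0.05 from limma. Among all 30374 tested probes 49.0% passed, 22.4% higher and 26.6% lower, so that passing was common on these arrays. With at least a 2-fold difference in addition, 4 of the 9 passed, against 22.9% of all tested probes. The 2 higher genes were Ccne1 and Cdk6, where 9.92% of all probes were called, and the 2 lower ones were Cdkn1b and Cdkn1c, where 13.0% were called. With normexp background correction in place of the processed signal, Cdk6 differed by 0.83 and Cdkn1b by -0.97 log2 units, both less than 2-fold, with limma adjusted p-values of 0.00374 and 0.00125. The values of both groups were fully apart for 3 of the 9 (Ccne1, Cdk4 and Cdkn1c), as they were for 37.3% of probes with a value on every array. The median difference was 0.68 log2 units over the 9 genes and -0.09 over all tested probes, and scaling to the 75th percentile moved the latter by 0.12 to 0.03. With that scaling 7740 of all probes passed as higher and 7284 as lower, against 6790 and 8088 in the main fit. Differences are given as SCC minus WT in log2 units of normalized intensity, where 1 unit is a 2-fold change, and levels of different probes were not compared.

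**Figure D1:**
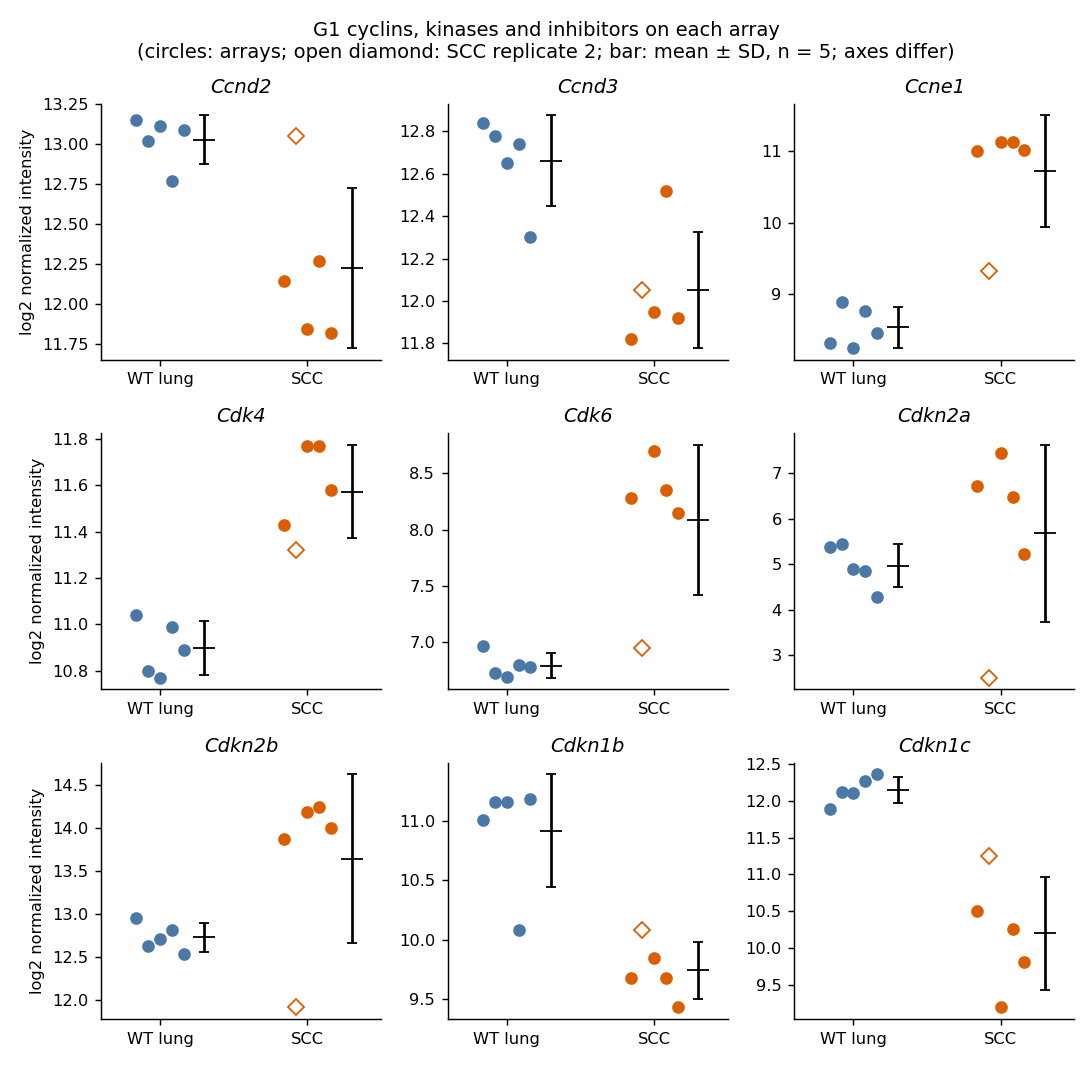
Log2 normalized intensity (y axes, which differ between panels) of 9 G1 genes on each WT lung and SCC array, with mean ± SD (n = 5 per group). Filled circles are single arrays and the open diamond is SCC replicate 2, which lies nearest to the WT mean for 7 of the 9 genes and below all WT arrays for Cdkn2a and Cdkn2b.

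Both measured D-type cyclins were lower in SCC. Ccnd2, which couples growth signals to Cdk4 and Cdk6, had log2 intensities of 13.15, 13.02, 13.11, 12.77 and 13.09 on WT replicates 1 to 5. On SCC replicates 1 to 5 they were 12.14, 13.05, 11.84, 12.27 and 11.82. SCC replicate 2 lay inside the WT range, and the other 4 SCC arrays lay below every WT array. The difference was -0.80 log2 units (SE 0.222, 95% CI -1.30 to -0.31), 1.75-fold lower, with a limma adjusted p of 0.0136 and an exact permutation p of 0.0238. It was -1.01 without SCC replicate 2, with a limma adjusted p of 0.000136. The other 2 probes of Ccnd2 also passed, at -0.63 and -0.60 log2 units with limma adjusted p-values of 0.0103 and 0.0104.

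Ccnd3, the D-type cyclin best known from lymphocytes and muscle, had log2 intensities of 12.84, 12.78, 12.65, 12.74 and 12.30 on WT replicates 1 to 5. The SCC values were 11.82, 12.05, 11.95, 12.52 and 11.92. SCC replicate 4, rather than replicate 2, was the SCC array inside the WT range, and the other 4 lay below it. The difference was -0.61 log2 units (SE 0.155, 95% CI -0.95 to -0.26), 1.52-fold lower, with a limma adjusted p of 0.00914 and an exact permutation p of 0.0159. Markers of cell types that are rich in normal lung moved the same way: all 7 endothelial and all 4 B cell markers passed as lower in SCC, as did 4 of 6 T cell markers. The log2 of the summed endothelial signal was 17.53 to 17.94 on WT arrays, 16.26 on SCC replicate 2 and 15.35 to 15.63 on the other SCC arrays. For B cell markers it was 13.18 to 13.98 on WT and 11.30 to 11.90 on SCC arrays, and for T cell markers 11.72 to 12.61 and 10.51 to 11.01. The part of these cells in the D-type cyclin values was not tested.

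Ccne1, the cyclin that partners Cdk2 at the entry to S phase, had the largest difference of the 9 genes. Its log2 intensities were 8.32, 8.90, 8.25, 8.77 and 8.46 on WT arrays and 11.01, 9.33, 11.13, 11.13 and 11.02 on SCC arrays. All SCC arrays lay above all WT arrays, with replicate 2 apart from the other 4, which spanned 11.01 to 11.13. The difference was 2.18 log2 units (SE 0.341, 95% CI 1.42 to 2.95), 4.54-fold higher, with a limma adjusted p of 0.000624 and an exact permutation p of 0.00794, the smallest that 5 against 5 arrays can give. Without SCC replicate 2 it was 2.53, with a limma adjusted p of 1.22e-06. A dimmer probe of Ccne1 read 4.67, 4.49, 4.69, 4.79 and 4.88 on WT and 6.64, 5.87, 6.85, 6.50 and 5.02 on SCC arrays. The groups did not overlap at that probe either, and its difference was 1.47 (SE 0.313, limma adjusted p 0.00358).

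Cdk4, a catalytic partner of the D-type cyclins, was higher on every SCC array than on any WT array. Its log2 intensities were 11.04, 10.80, 10.77, 10.99 and 10.89 in WT and 11.43, 11.32, 11.77, 11.77 and 11.58 in SCC. The difference was 0.68 log2 units (SE 0.116, 95% CI 0.42 to 0.94) or 1.60-fold, with a limma adjusted p of 0.00104 and an exact permutation p of 0.00794. Cdk6, the related kinase, had values of 6.97, 6.73, 6.69, 6.80 and 6.78 in WT and 8.28, 6.95, 8.70, 8.35 and 8.15 in SCC. The WT arrays lay close together, 4 SCC arrays stood above all of them, and SCC replicate 2 fell inside their range. The difference was 1.29 log2 units (SE 0.281, 95% CI 0.67 to 1.92), 2.45-fold higher, with a limma adjusted p of 0.00402 and an exact permutation p of 0.0159. It was 1.58 without SCC replicate 2, with a limma adjusted p of 6.66e-06.

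The dimmer probe of Cdk6 did not pass. It read 5.36, 5.47, 5.51, 5.31 and 5.27 in WT and 6.24, 5.68, 6.97, 6.28 and 4.43 in SCC, so that 4 SCC arrays lay above all WT arrays and SCC replicate 5 lay below them. Its difference was 0.54 log2 units (SE 0.392, 95% CI -0.34 to 1.41, limma adjusted p 0.278). Without SCC replicate 5 it was 0.91 with a limma adjusted p of 0.00722, and under 75th percentile scaling it was 1.03 with a limma adjusted p of 0.00368. The call at this probe thus turned on that array and on the scaling.

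**Figure D2:**
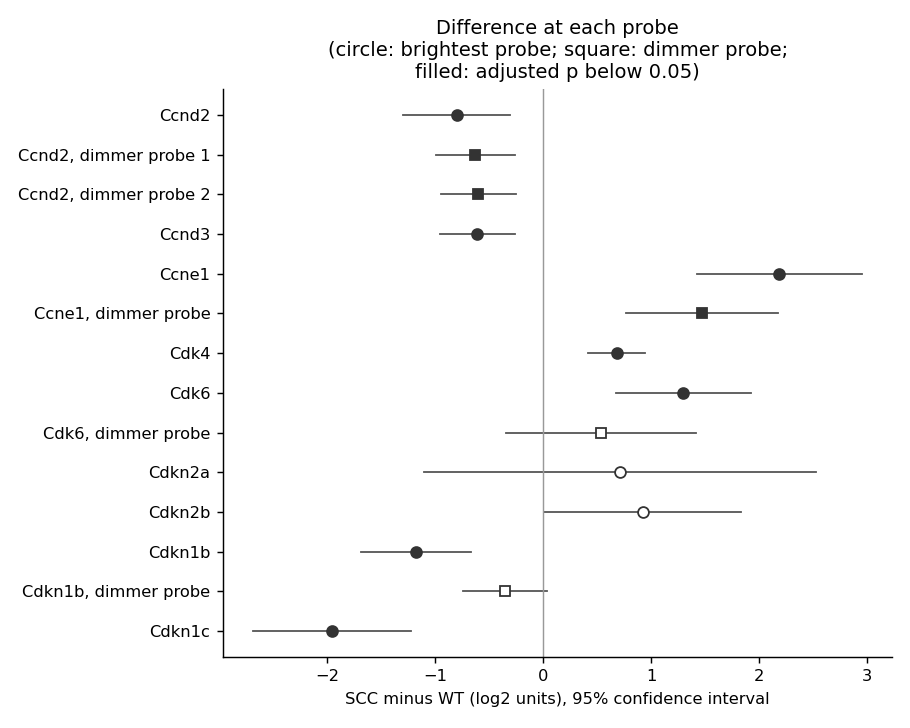
Difference between SCC and WT (x axis, log2 units) with its 95% confidence interval at each probe of 9 G1 genes, with the brightest probe of a gene as a circle and its dimmer probes as squares, filled where the limma adjusted p was below 0.05. Intervals lie wholly above 0 for both Ccne1 probes and below 0 for all 3 Ccnd2 probes, while the dimmer probes of Cdk6 and Cdkn1b have intervals that cross 0.

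Neither INK4 inhibitor passed on all 10 arrays, and both were spread widely in SCC. Cdkn2b encodes p15, an inhibitor of Cdk4 and Cdk6 that is induced by TGF-beta. Its log2 intensities were 12.96, 12.63, 12.71, 12.82 and 12.54 on WT arrays and 13.88, 11.92, 14.19, 14.25 and 14.01 on SCC arrays. SCC replicates 1, 3, 4 and 5 lay above every WT array, and replicate 2 lay below every WT array. The difference was 0.92 log2 units (SE 0.407, 95% CI 0.01 to 1.83), with a limma adjusted p of 0.0862 and an exact permutation p of 0.0476. The difference was 1.35 without SCC replicate 2, with a limma adjusted p of 1.37e-05.

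Cdkn2a encodes p16INK4a and, from an alternative first exon, p19ARF, which acts on the p53 pathway. Its probe is annotated to 1 transcript, and which of the 2 products it reads was not tested. The gene is grouped with the INK4 inhibitors by its name, and its values are not to be read as those of p16INK4a. It was dim, and was not well above background on WT replicate 5 and SCC replicate 2. The log2 intensities were 5.38, 5.45, 4.89, 4.84 and 4.29 in WT and 6.72, 2.51, 7.45, 6.47 and 5.23 in SCC. The SCC arrays spanned both sides of the WT range, with replicates 1, 3 and 4 above it and replicate 2 below it. The difference was 0.71 log2 units (SE 0.811, 95% CI -1.10 to 2.52), with a limma adjusted p of 0.488 and an exact permutation p of 0.492. Without SCC replicate 2 it was 1.50, with a limma adjusted p of 0.0149, and without SCC replicate 5 it was 0.82, with a limma adjusted p of 0.455. Leaving out SCC replicate 3, the array with the highest value, brought it to 0.26, with a limma adjusted p of 0.801.

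Markers of neutrophils divided the arrays as Cdkn2b did. Of 5 such markers 3 passed as higher in SCC, and the log2 of their summed signal was 14.62 to 15.47 on WT arrays, 13.92 on SCC replicate 2 and 16.66 to 16.84 on the other SCC arrays. S100a9 set most of this sum, at 13.55 on SCC replicate 2 and 16.30 to 16.45 on the other SCC arrays. By itself S100a9 did not pass (1.07, limma adjusted p 0.126). Macrophage markers, of which 2 of 5 were higher and 2 lower, summed to 15.10 to 15.81 on WT arrays, 15.05 on SCC replicate 2 and 15.79 to 16.02 on the others. The part of these cells in the INK4 values was not tested.

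Both CIP/KIP inhibitors were lower in SCC. Cdkn1c encodes p57, the inhibitor expressed from the maternal allele of an imprinted locus. It had log2 intensities of 11.89, 12.12, 12.11, 12.27 and 12.36 in WT and 10.50, 11.25, 9.19, 10.25 and 9.81 in SCC. All SCC arrays lay below all WT arrays, with replicate 2 the closest and replicate 3 the farthest. The difference was -1.95 log2 units (SE 0.326, 95% CI -2.68 to -1.22), 3.87-fold lower, with a limma adjusted p of 0.000921 and an exact permutation p of 0.00794. It was the largest fall among the 9 genes. Markers of stromal cells were lower beside it, with 4 of 5 smooth muscle and 3 of 6 fibroblast markers passing as lower, 2 fibroblast markers passing as higher, and the endothelial signal as given above. The log2 summed signal was 14.89 to 15.51 on WT and 14.48 to 15.10 on SCC arrays for smooth muscle, and 16.78 to 16.97 and 16.27 to 16.75 for fibroblasts. Among other cells of normal lung, 4 of 6 alveolar type 2, 4 of 5 alveolar type 1, 3 of 4 club cell and 4 of 5 cardiac muscle markers passed as lower. Of 5 ciliated cell markers 1 passed as lower and 4 did not pass, where 26.6% of all tested probes passed as lower. The log2 summed signals of all these cells on WT and SCC arrays were 19.38 to 19.42 and 18.95 to 19.28 for alveolar type 2 cells, and 17.75 to 17.95 and 15.66 to 16.48 for the 4 alveolar type 1 markers with a value on every array. For club cells they were 19.25 to 19.72 and 17.21 to 19.32, for ciliated cells 12.37 to 13.92 and 11.02 to 13.36, and for cardiac muscle 13.59 to 16.88 and 13.22 to 13.46. Aqp5, the only alveolar type 1 marker that passed as higher, had no value on WT replicate 1 and was fitted without it. The part of these cells in the CIP/KIP values was not tested.

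Cdkn1b encodes p27, a brake on Cdk2 complexes. Its brightest probe read 11.01, 11.16, 11.16, 10.08 and 11.19 on WT arrays and 9.68, 10.08, 9.85, 9.68 and 9.43 on SCC arrays. WT replicate 4 stood below the other WT arrays and level with SCC replicate 2. The difference was -1.18 log2 units (SE 0.226, 95% CI -1.68 to -0.67), 2.26-fold lower, with a limma adjusted p of 0.00205 and an exact permutation p of 0.0159, and without WT replicate 4 it was -1.39. The dimmer probe of Cdkn1b read 8.46, 8.80, 8.66, 9.01 and 8.50 in WT and 8.43, 8.87, 8.09, 8.26 and 8.04 in SCC, and did not pass. There WT replicate 4 was the highest array and SCC replicate 2 fell inside the WT range. Its difference was -0.35 (SE 0.176, 95% CI -0.74 to 0.04, limma adjusted p 0.122), and without SCC replicate 2 it was -0.48, with a limma adjusted p of 0.0135. At this dimmer probe it was -0.28 without SCC replicate 5, -0.26 with 75th percentile scaling and -0.04 with slide as a fixed block, with limma adjusted p-values of 0.211, 0.228 and 0.947.

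SCC replicate 2 was the SCC array nearest to the WT mean for 6 of the 7 genes that passed. The same held for 61.6% of all passing probes. Markers of dividing cells showed it too, with a log2 summed signal of 11.08 to 12.09 on WT arrays, 13.27 on SCC replicate 2 and 14.51 to 14.90 on the other SCC arrays. Leaving out SCC replicate 2 brought both INK4 inhibitors past the threshold, so that all 9 genes passed, against 58.8% of all probes in that fit. The 7 genes that passed on all arrays did so in each of the 10 fits that left out 1 array.

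The slide could not be separated from the groups with much precision. With slide as a fixed block, none of the 9 genes passed in limma, against 12.6% of all tested probes. The differences kept their direction, at 2.03 for Ccne1, 0.62 for Cdk4, 1.20 for Cdk6, -0.74 for Ccnd2, -0.36 for Ccnd3, -1.32 for Cdkn1b and -2.05 for Cdkn1c. They equal those within the slide that held both groups and rest on 1 WT array against 3 SCC arrays. For the INK4 inhibitors the blocked differences were 1.28 for Cdkn2a and 0.79 for Cdkn2b. Limma adjusted p-values with the block were 0.078 for Ccne1, 0.0762 for Cdkn1c and 0.0794 for Cdkn1b, and ranged up to 0.347 for Ccnd3 among the genes that had passed. Among these 7 genes the block changed the size most for Ccnd3.

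**Figure D3:**
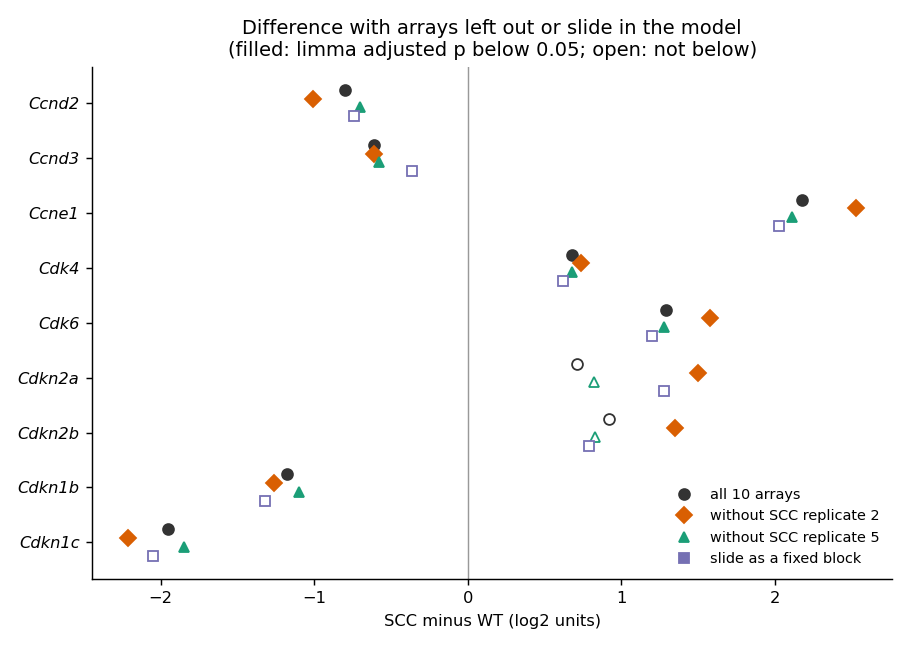
Difference between SCC and WT (x axis, log2 units) for 9 G1 genes on all 10 arrays (circles), without SCC replicate 2 (diamonds), without SCC replicate 5 (triangles) and with slide as a fixed block (squares), filled where the limma adjusted p was below 0.05. Signs are the same in all 4 fits, Cdkn2a and Cdkn2b are filled only without SCC replicate 2, and every square is open.

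Whether related genes changed unequally was asked within each array in 4 comparisons with the exact two-sided permutation test. None passed after Benjamini-Hochberg adjustment over the 4. Cdk4 minus Cdk6 was 4.10 ± 0.0501 log2 units (SD, n = 5) in WT and 3.49 ± 0.516 in SCC, with an exact p of 0.0476 and an adjusted p of 0.111. The difference between groups was -0.62 log2 units, and with normexp background correction it was -0.20 (exact adjusted p 0.286). This comparison used the brighter Cdk6 probe. The dimmer Cdk6 probe differed by 0.54 between groups and by 0.60 without SCC replicate 2, less than the 0.68 and 0.74 of Cdk4. A comparison with the dimmer probe was not run, so the sign is given for the brighter probe only. Cdk4 minus Cdk6 lay between 3.07 and 3.43 on 4 SCC arrays and was 4.36 on SCC replicate 2, above all WT arrays. Cdkn1b minus Cdkn1c was -1.23 ± 0.549 in WT and -0.45 ± 0.687 in SCC (SD, n = 5), with an exact p of 0.0556 and an adjusted p of 0.111. Without SCC replicate 2, both of these reached an exact adjusted p of 0.0159, at -0.83 and 0.95 log2 units between groups. Ccnd2 minus Ccnd3 differed by -0.20 between groups (exact adjusted p 0.635, n = 5), by -0.40 without SCC replicate 2 (exact adjusted p 0.0847) and by -0.09 without WT replicate 5 or without SCC replicate 4, and Cdkn2a minus Cdkn2b by -0.21 (exact adjusted p 0.714, n = 5). The sign of the last turned under other settings, to 0.15 without SCC replicate 2 and to 0.09 with scaling to the 75th percentile.

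**Figure D4:**
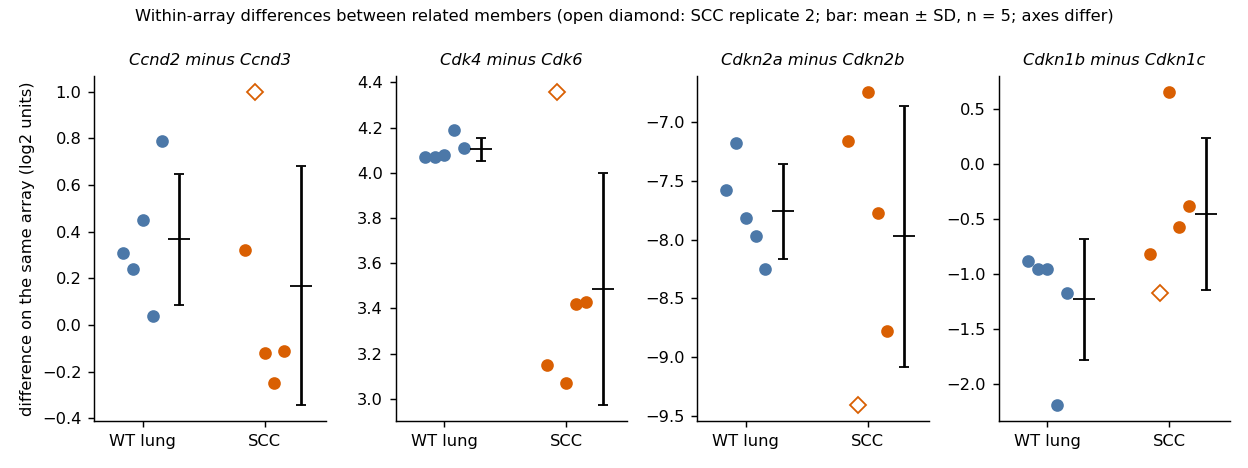
Difference between 2 related genes on the same array (y axes, log2 units, which differ between panels) for WT lung and SCC, with mean ± SD (n = 5 per group), filled circles for arrays and an open diamond for SCC replicate 2. Cdk4 minus Cdk6 lies between 4.07 and 4.19 on WT arrays and between 3.07 and 3.43 on all SCC arrays but replicate 2, at 4.36.

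The wider G1/S pathway was followed through a list of 33 further genes, 32 of which had a probe. Of these, 15 were higher in SCC, 7 were lower and 10 did not pass, where 49.0% of all tested probes passed. The median difference was 0.25. With at least a 2-fold difference as well, 9 were higher and none was lower, where 9.92% and 13.0% of all tested probes were called. The values of both groups were fully apart for 16 of the 32, as for 37.3% of probes with a value on every array. The 14 genes with more than 1 tested probe included none whose probes passed in opposite directions.

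Among the 13 partners and substrates of the G1 kinases, 5 were higher, 4 were lower and 4 did not pass. Ccna2, the cyclin that takes over Cdk2 in S phase, had the highest difference, at 2.56 log2 units (SE 0.278, limma adjusted p 7.25e-05). Its values were 9.51, 8.80, 9.06, 9.01 and 8.47 in WT and 11.67, 10.61, 11.99, 11.90 and 11.50 in SCC, with no overlap. Ccne2, the other E-type cyclin, was higher by 1.47 (SE 0.297, limma adjusted p 0.00275), with SCC replicate 2 at 5.95, level with the highest WT array, and the other SCC arrays at 6.78 to 7.40. Rbl2, which encodes the p130 pocket protein of resting cells, had the lowest difference, at -0.81 (SE 0.236, limma adjusted p 0.0179), and a dimmer probe of it did not pass, at -0.56 with a limma adjusted p of 0.194. Rbl1, which encodes the p107 pocket protein, was higher by 0.65 (SE 0.207, limma adjusted p 0.0264).

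Rb1, which encodes the retinoblastoma protein, was lower by 0.38 log2 units in SCC (difference -0.38, SE 0.102, limma adjusted p 0.0124). Its values were 11.78 to 12.14 on WT arrays and 11.44 to 11.75 on SCC arrays, without overlap, and a dimmer probe gave 0.23 with a limma adjusted p of 0.446. E2f1, the best known E2F activator, gave -0.01 (SE 0.201, 95% CI -0.46 to 0.44, limma adjusted p 0.969), and E2f3, another activator, was higher by 0.60 (limma adjusted p 0.0014). Its other 2 probes gave larger differences, of 1.51 and 1.12 log2 units, with limma adjusted p-values of 2.19e-05 and 4.91e-05. Cdk2, the kinase partner of E-type cyclins, gave 0.07 (SE 0.540, 95% CI -1.13 to 1.28, limma adjusted p 0.921). SCC replicate 5 was at 3.44 for this probe, while the other SCC arrays read 6.01 to 6.54 and WT arrays 5.33 to 6.05. Without that array the difference for Cdk2 was 0.64 with a limma adjusted p of 0.012, and with 75th percentile scaling it was 0.65 with a limma adjusted p of 0.00949. The call for Cdk2 at this probe thus turned on that array and on the scaling, as it had at the dimmer Cdk6 probe. A dimmer probe of Cdk2 did not pass on all arrays, at 0.27 log2 units with a limma adjusted p of 0.73.

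The other inhibitors did not move as a group. Cdkn2c, which encodes the INK4 protein p18, was lower on every SCC array, at 10.93 to 11.37 against 11.52 to 12.16 in WT, a difference of -0.90 log2 units (SE 0.142, limma adjusted p 0.000679). Cdkn1a, the p53 target that encodes p21, had the highest difference of the 3, at 0.59 (SE 0.285, 95% CI -0.05 to 1.23, limma adjusted p 0.111). Its values were 11.11, 10.01, 11.41, 11.29 and 11.18 in SCC and 10.04 to 10.96 in WT. SCC replicate 2 was thus about level with the lowest WT array, and the other SCC arrays lay above all WT arrays. The difference for Cdkn1a was 0.84 without SCC replicate 2, with a limma adjusted p of 0.00518. Cdkn2d, which encodes p19INK4d, gave 0.12 (limma adjusted p 0.7).

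Of the 8 regulators, 2 were higher, 2 were lower and 4 did not pass, a share passing close to the 49.0% of all tested probes. Myc, the growth-promoting transcription factor, was the highest at 1.65 log2 units (SE 0.227, limma adjusted p 0.000295), with 9.98 to 10.57 on WT and 11.11 to 12.33 on SCC arrays. Cks1b, the cofactor with which the Skp2 ubiquitin ligase marks p27 for destruction, was higher by 1.53 (SE 0.182, limma adjusted p 0.000121), while Skp2 itself gave 0.00 (95% CI -1.39 to 1.39, limma adjusted p 0.999). The Skp2 probe read 3.52 on SCC replicate 5 and 5.08 to 6.60 on the other SCC arrays, and without that array the difference was 0.52 (limma adjusted p 0.348), as it was 0.56 with 75th percentile scaling (limma adjusted p 0.307). Mnat1, an assembly factor of the kinase that activates CDKs, was the lowest at -0.60 (limma adjusted p 0.000772), and Fbxw7, which directs cyclin E to degradation, was lower as well at -0.39 (limma adjusted p 0.0121), although its dimmer probe, at -0.26, did not pass (limma adjusted p 0.261). For Cdc25a, the phosphatase that activates Cdk2, the difference was 0.04 (limma adjusted p 0.952) with all arrays and 0.55 (limma adjusted p 0.018) without SCC replicate 5.

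All 8 measured E2F target genes were higher in SCC, where 22.4% of all tested probes were, with a median difference of 1.29 log2 units. With slide as a fixed block Tyms alone of the 8 passed, and the limma adjusted p-values of the others ran from 0.0507 for Mcm6 to 0.296 for Mcm3. The highest was Mcm5, a subunit of the replicative helicase, at 1.63 (SE 0.274, limma adjusted p 0.000941). Tyms, which makes thymidylate for DNA synthesis, differed by 1.46 (SE 0.124, limma adjusted p 1.96e-05) with 10.30 to 10.81 in WT and 11.71 to 12.16 in SCC. The lowest was Pcna, the sliding clamp of the replication fork, at 0.38 (SE 0.115, limma adjusted p 0.0208). These genes mark replicating cells in general, and all 6 markers of dividing cells passed as higher beside them. The part of a larger share of dividing cells was not tested.

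With slide as a fixed block, 5 of the 32 pathway genes passed in limma, all higher in SCC, where 12.6% of all tested probes passed in either direction. They were Ccna2 at 2.95 log2 units, Tfdp1 at 0.91, Cks1b at 1.67, Myc at 1.66 and Tyms at 1.64, with adjusted p-values of 0.0128, 0.0233, 0.019, 0.0491 and 0.00564. Tfdp1 encodes the DNA-binding partner of the E2F proteins. Cdkn2c, Rbl2 and Rb1, which had passed as lower, came nearer to 0 with the block, at -0.41, -0.41 and -0.15 log2 units, with limma adjusted p-values of 0.204, 0.537 and 0.626. The others that had passed as lower did not all do so. Tfdp2 went from -0.39 to -0.14 and E2f2 from -0.53 to -0.47. Mnat1 stayed near its value, from -0.60 to -0.59, and Fbxw7 moved away from 0, from -0.39 to -0.48. Of the pathway genes named, Rbl1, E2f2, E2f3, Cks1b, Fbxw7, Cdkn2d, Skp2, Cdc25a, Tyms, Mcm3, Mcm6, Tfdp1 and Tfdp2 were chosen after their values were seen.

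**Figure D5:**
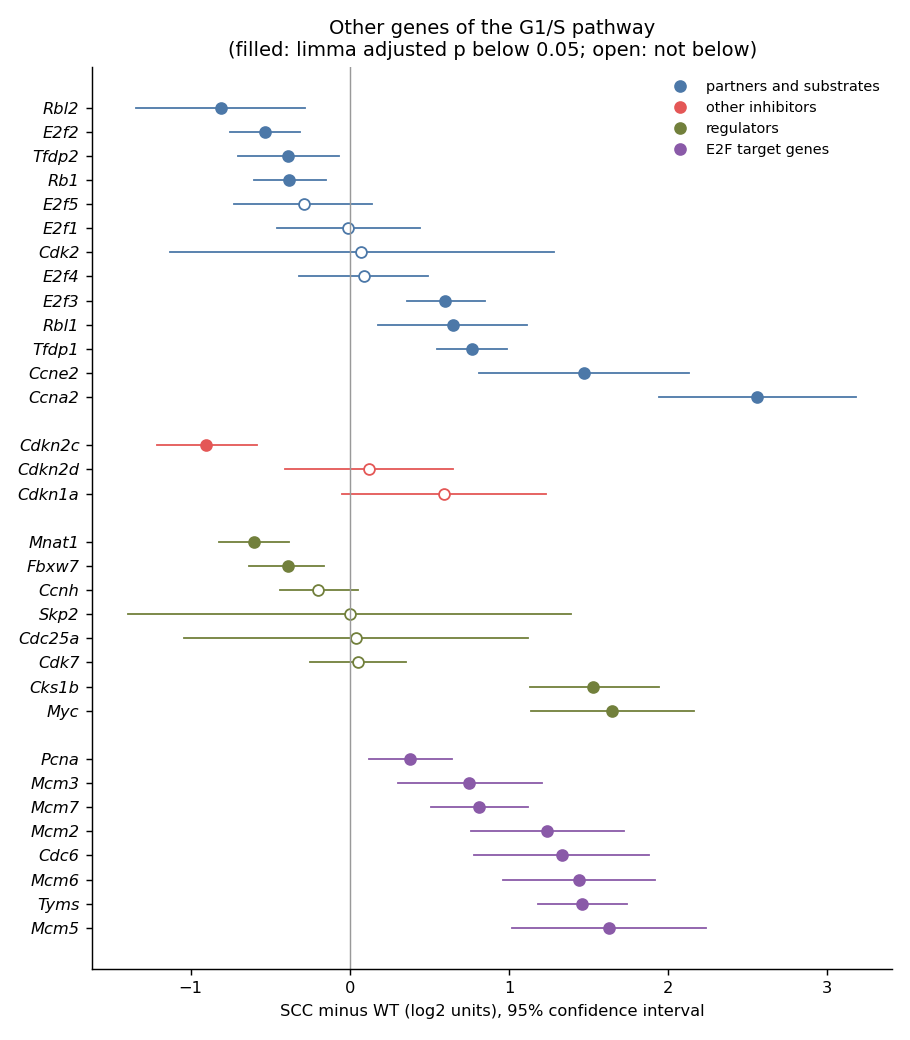
Difference between SCC and WT (x axis, log2 units) with its 95% confidence interval for 32 further G1/S genes in 4 groups by color, filled where the limma adjusted p was below 0.05. All 8 E2F target genes lie above 0, from 0.38 to 1.63, and the intervals of Cdk2, Skp2 and Cdc25a, for which SCC replicate 5 was far below the other arrays, are the widest.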

How the data were processed

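Total RNA of 5 WT lungs and 5 SCCs was labeled with Cy3, and each sample was hybridized to 1 array. The titles of the samples gave the group and the replicate number. The study's methods state that sample sizes count biological replicates, while the labels do not tie the arrays to animals, so p-values measure the spread between these samples. The listed genes, pathway genes and markers were chosen with earlier results of these data known.

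The authors read the arrays with Agilent Feature Extraction 12.0.0.7, per the file headers. The deposited files hold the processed intensity of each spot, after background subtraction, and a series matrix of log2 values that the authors had quantile-normalized. Control and outlier spots were left out, spots of a probe were averaged, and 41174 probes were quantile-normalized. A probe was tested where it was well above background on at least 4 arrays of a group, which left 30374. limma 3.58.1 in R 4.3.3 was fitted on all 10 arrays without covariates, two-sided, in place of the one-way analysis of variance in the authors' methods, and p-values were adjusted by Benjamini-Hochberg over all tested probes. The script was tested on simulated data. Exact two-sided permutation tests ran over all splits of the arrays. The precision is limited by the number of arrays.

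Accessions were paired with symbols through a RefSeq gene table (GRCm38.p6), which named 28223 probes. Of 41174 probes, 113 lacked a value on at least 1 array, and no value of the listed and pathway genes was missing or imputed. By rule the pathway genes named were Rb1, E2f1, Cdk2, Ccne2 and Cdkn1a and, in each group, the genes with the highest and lowest difference, and the others named were chosen after their values were seen. Alternatives were scaling to the 75th percentile, normexp background correction on the median signal with an offset of 50, the deposited log2 matrix, other filters on dim probes, other probes of a gene, slide or replicate number as a block, the slide with both groups alone, array quality weights, a t-test, to which the methods' analysis of variance reduces for 2 groups, and arrays left out. Over 245 repeated probes the smallest SD between 2 arrays of a group was 0.239 log2 units, against a largest error of a probe mean from its spots of 0.0416. Spot error lies within an array, so this could not tell 2 hybridizations of 1 sample from 2 samples. Each array was counted as 1 sample.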

Additional observations from a re-analysis of the deposited data

Results flagged for a closer look

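Single arrays were compared with the rest of their group for each of the 9 genes, their dimmer probes and the within-array differences, in 36 groups of 5 arrays. In 5 of them the gap between the extreme array and its neighbor was more than 0.71 of the range of the group. For independent values chance gives about 1 in 20, but these groups share arrays, genes and probes. The share over all tested probes was not computed, so the count describes the arrays and is not a result about these genes. SCC replicate 2 was the array in 3 of the 5. Its Ccne1 value of 9.33 lay below 11.01 to 11.13 on the other SCC arrays, a gap of 0.929 of the range. Its Cdkn2b value of 11.92 lay below 13.88 to 14.25, a gap of 0.841. Its Cdk4 minus Cdk6 difference of 4.36 lay above 3.07 to 3.43, a gap of 0.722. WT replicate 4 was the array in the other 2. Its Cdkn1b value of 10.08 lay below 11.01 to 11.19 on the other WT arrays, a gap of 0.837, and its Cdkn1b minus Cdkn1c difference of -2.19 lay below -1.17 to -0.88, a gap of 0.774, which contains the same Cdkn1b value.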

How the results depend on the processing

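Ccnd2, Ccnd3, Ccne1, Cdk4, Cdk6, Cdkn1b and Cdkn1c passed on all arrays and kept their direction in every alternative run. With slide as a fixed block, and within the slide that held both groups, none of the 9 genes passed (0), at -0.74 for Ccnd2, -0.36 for Ccnd3, 2.03 for Ccne1, 0.62 for Cdk4, 1.20 for Cdk6, -1.32 for Cdkn1b and -2.05 for Cdkn1c, and 3814 and 0 of all probes passed, against 14878 without the block. The block leaves few samples for the contrast. Of the pathway genes 5 and 0 passed, against 22. With slide as a random block 7 genes and 15102 of all probes passed, at a within-slide correlation of -0.0174. The methods' t-test (their analysis of variance for 2 groups) at the unadjusted p and 2-fold difference that head the study's gene list called 4 of the 9, 5867 of all probes and 9 pathway genes, and left out Ccnd2 (-0.80), Ccnd3 (-0.61) and Cdk4 (0.68), which differ by less than 2-fold. With Benjamini-Hochberg adjustment and without the 2-fold requirement, the same t-test called 7 of the 9 genes and 14464 of all probes. limma with a 2-fold difference called 4, and of these Cdk6 (0.83) and Cdkn1b (-0.97) fell under 2-fold with normexp. The dimmer probes gave 0.54 for Cdk6 and -0.35 for Cdkn1b. Array quality weights brought Cdkn2a to 1.60 and Cdkn2b to 1.26 and past the threshold, as did leaving out SCC replicates 2 and 5 (1.91 and 1.38), and 9 genes passed in each, with 20063 and 19731 of all probes. Leaving out WT replicate 4 and SCC replicate 2 together, an alternative chosen after seeing the data, gave 1.47 and 1.37. Cdkn2a was at 0.41 with normexp and at 1.08 with 75th percentile scaling, and passed in neither. Single arrays left out gave 0.26 to 1.50 for Cdkn2a and 0.77 to 1.35 for Cdkn2b, with 7 to 9 of the 9 genes, 12625 to 17865 of all probes and 19 to 25 pathway genes passing.

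Within arrays, Cdkn2a minus Cdkn2b, at -0.21, reversed to 0.09 with 75th percentile scaling, to 0.54 without SCC replicates 2 and 5, to 0.48 with the slide block and within the slide that held both groups, and ranged from -0.52 to 0.15 with single arrays left out. The cause was not tested. Without SCC replicates 2 and 5, Cdk4 minus Cdk6 was -0.89 and Cdkn1b minus Cdkn1c 0.99, both past the threshold, and single arrays left out gave -0.83 to -0.51 and 0.50 to 0.95. With normexp Cdk4 minus Cdk6 was -0.20, and all its values rest on the brighter Cdk6 probe. Ccnd2 minus Ccnd3 ranged from -0.40 to -0.09 with single arrays left out and was -0.39 with the slide block. Block fits of these differences were values without a test, and comparisons with Ccnd1 were not run.

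The replicate numbers did not pair the arrays: same-numbered arrays deviated from their group means with r from -0.103 to 0.009, and no array correlated best with its own number. With replicate number as a block 7 of the 9 genes passed, in the same directions, and 12374 of all probes and 18 pathway genes.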

Other observations

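The gap between the brighter and the dimmer probe on the same array was compared between groups for Cdkn1b, Cdk6 and Ccne1, a choice made after the values were seen. For Cdkn1b it was 2.23 log2 units in WT and 1.41 in SCC (exact p 0.0476, adjusted over the 3 comparisons 0.0714), with WT replicate 4 at 1.07 and the other WT arrays at 2.36 to 2.69. For Cdk6 it was 1.41 in WT and 2.17 in SCC (exact p 0.0476, adjusted 0.0714), with SCC replicate 5 at 3.72 and the other SCC arrays at 1.27 to 2.07. For Ccne1 it was 3.83 in WT and 4.55 in SCC (exact p 0.135, adjusted 0.135), with SCC replicate 5 again the highest at 5.99. None passed after adjustment.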
